A study of Mus musculus with 66 samples.

Results

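Lungs of Nrf2 knockout mice were compared across birth. The comparison used the 6 of 66 samples of the study that were titled as knockout at an embryonic age of E18.5 (3 samples) and as knockout at postnatal day 0, PND0 (3 samples). They were taken as labelled, with every probe set that is not a control.

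The study followed lung RNA in mice of 2 genotypes at 11 ages, from E13.5 to postnatal day 42, on Affymetrix expression arrays, 1 array per sample and 3 samples in each of 22 groups. All 6 samples here were Nrf2-/- (knockout), and the lungs labelled E18.5 were taken from fetuses of time-mated dams by surgery, whereas the PND0 lungs came from newborns. The wild-type samples used for comparison were Nrf2+/+ at the same ages, and 3 further knockout samples were labelled E17.5. All groups shared the AIN-76A diet and the light-dark cycle. Each sample was 1 homogenized lung, and the 3 of a group are described as biological replicates, with no litter named. The sources used here do not give the strain, the allele or the hour of collection. No treatment was named for these groups.

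At birth the lung turns from secreting fluid to absorbing it and its vessels open to the full flow of blood, and its alveolar cells must release surfactant to keep the air spaces open. Glucocorticoids from the fetal adrenal, acting through the receptor Nr3c1, prepare these changes, and a breathing newborn also meets more oxygen than a fetus. Nfe2l2 encodes Nrf2, which answers oxidative stress by raising the transcription of genes of antioxidant defence and detoxification.

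Values below are log2(signal + 16) after quantile normalization, called log2 signal, and a step is the mean at PND0 minus the mean at E18.5 on that scale. The scale understates changes of dim genes. A probe set rose or fell when its Benjamini-Hochberg adjusted p from limma over all 45037 probe sets was under 0.05. Each SE rests on 1 variance per probe set estimated from the 22 groups jointly, which is too small where a group's own libraries were unlike. Each of 18193 genes is given by its brightest probe set unless another is named. Each value of a group lists replicates 1, 2 and 3 in that order.

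The order of the libraries went against their labelled ages. On a scale built from 2545 genes that differed between wild-type E15.5 (set to 0) and wild-type PND0 (set to 1), the knockout libraries labelled E18.5 lay at 0.36, 0.48 and 0.48. Those labelled E17.5 lay at 0.70, 0.76 and 0.76, so all 3 libraries labelled as the younger fetuses lay nearer to birth. Wild type followed the order of its labels, from a mean of 0.56 ± 0.07 (SD, n = 3) at E17.5 to 0.79 ± 0.08 at E18.5. The knockout libraries of PND0 lay at 1.09, 1.03 and 1.05, close to those of wild type. For this reason the step from the libraries labelled E17.5 is given beside the main results. It uses the same PND0 libraries, so the 2 sets of values are not independent. The libraries labelled E17.5 also carried more signal of liver genes. The mean log2 signal of the 9 measured liver genes lay between 7.5 and 8.5 in them. It was 5.48, 6.42 and 5.67 at knockout E18.5 and 5.25, 5.48 and 6.04 at knockout PND0. The part of this in the step from E17.5 was not tested. Exchanged labels and fetuses of another true age cannot be told apart here, and were not tested.

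**Figure D1:**
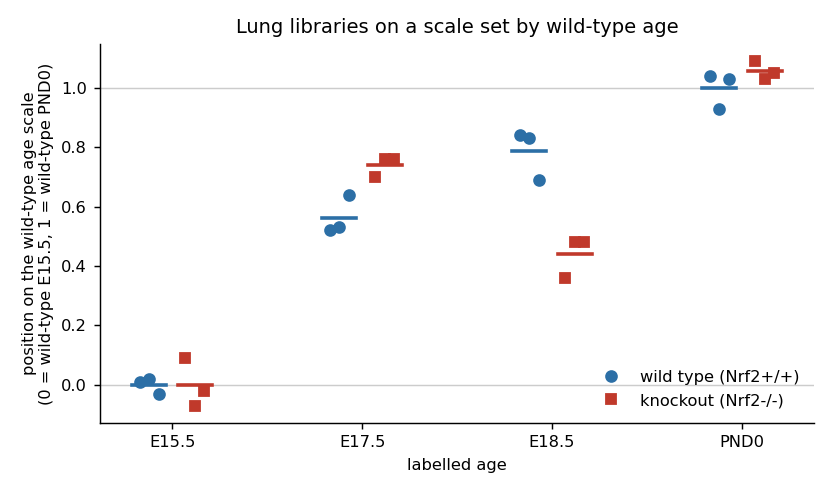
Position of each library (points, with a short line at the mean of 3) on the wild-type age scale, by labelled age, for wild type (circles) and knockout (squares). The knockout libraries labelled E18.5 averaged 0.44 and lay below all 3 knockout libraries labelled E17.5, which averaged 0.74.

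One knockout library labelled E18.5, replicate 1, also carried more RNA of neighbouring tissues. The mean log2 signal of the 14 heart muscle genes was 12.61 in replicate 1 against 9.84 and 10.41 in the others, and that of the 13 cartilage genes was 9.43 against 7.19 and 7.17. The 10 thymocyte genes averaged 8.25 against 5.89 and 5.63, and the 10 skeletal muscle genes 10.36 against 7.41 and 7.62. At PND0, replicate 1 was high in skeletal muscle genes (11.31 against 8.46 and 7.43). The defining lung markers were present in all 6 libraries, with Sftpc at 14.66 to 14.72 and Ager at 13.55 to 14.44. Signal of the Gapdh control's 3' end over that of its 5' end, a sign of RNA integrity, was 0.77 to 0.78 at E18.5 and 0.84 to 0.89 at PND0, so it moved with the comparison, and its part in the results was not tested. Xist, an RNA of female cells, stood at 13.88, 11.10 and 10.74 at E18.5 and at 7.60, 8.66 and 13.72 at PND0. In wild type it stood at 6.57, 13.92 and 11.15 and then at 7.76, 8.32 and 7.43. Its level was thus uneven between the groups, and the part of sex in the results was not tested. Pearson correlations over all probe sets were 0.967 to 0.981 within E18.5, 0.972 to 0.978 within PND0 and 0.930 to 0.950 between them.

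In the knockout lung, 11535 of 45037 probe sets differed between the libraries labelled E18.5 and PND0, which is 25.6%. Of these 5437 were higher at PND0 (12.1% of all) and 6098 lower (13.5%). By gene, 2659 rose (14.6%) and 3502 fell (19.2%), with a median step of -0.03 over all genes, and 927 rose (5.1%) and 1102 fell (6.06%) by at least 2-fold. In wild type 1868 probe sets (4.15%) passed, and by gene 591 rose (3.25%) and 445 fell (2.45%). These shares by gene are the background for the list counts below in each genotype. The steps themselves differed between the genotypes at 5188 probe sets (11.5%). The 2 steps share no library. From the knockout libraries labelled E17.5, 9026 probe sets (20%) passed, with 1876 genes higher (10.3%) and 2970 lower (16.3%). Without replicate 1 of the E18.5 group, 9674 probe sets passed in the knockout step.

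Of the 6161 genes that passed in knockout, 10.9% passed in wild type in the same direction. Of the 1036 that passed in wild type, 64.8% passed in knockout in the same direction. Both steps passed for 726 genes, 671 in the same direction and 55 in opposite directions. In 2732 of the 6161 genes the difference between the steps passed its own test. Genes that rose in knockout had a median step of 0.80 there and 0.20 in wild type, and genes that fell had -0.77 and -0.12. These medians are a description, since the genes were chosen by their knockout step.

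**Figure D2:**
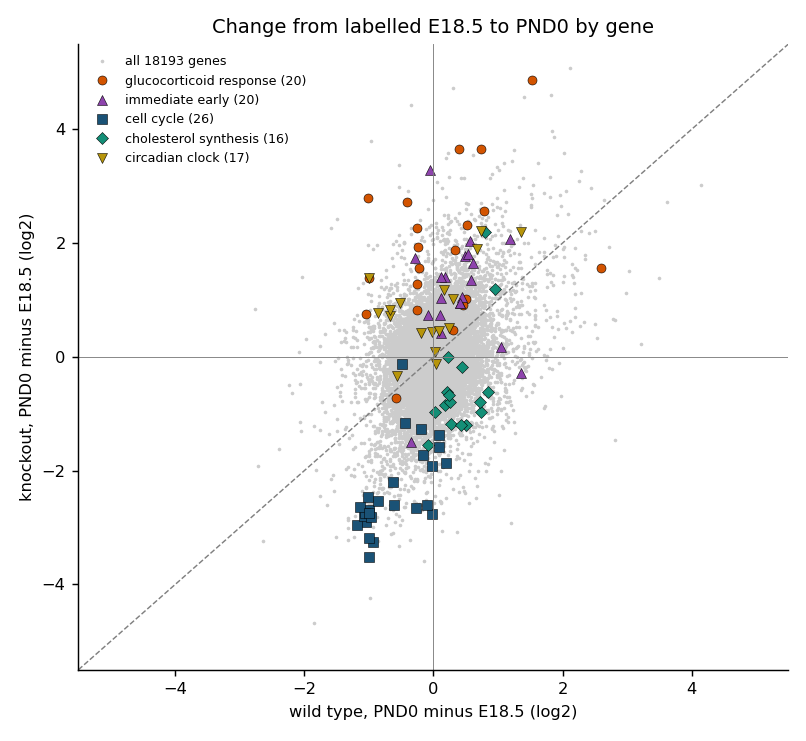
Step from labelled E18.5 to PND0 of each of 18193 genes in wild type (x axis) and knockout (y axis), in log2 units, with the members of 5 gene lists marked. The dashed line is equality. Cell cycle genes lie low and glucocorticoid response genes high on the knockout axis, with smaller wild-type steps for most.

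The 2 probe sets of the targeted gene gave different pictures, 1 low at both ages and the other high at PND0. The brighter Nfe2l2 probe set stood at 5.63, 4.98 and 5.64 at E18.5 and at 5.43, 5.64 and 4.41 at PND0, with overlapping groups and a step of -0.26 ± 0.34 (SE, adjusted p = 0.68). Wild-type libraries stood at 11.99 to 12.25 and at 11.77 to 11.91, so no knockout library of the 6 came near them. A dimmer Nfe2l2 probe set stood at 5.60, 6.41 and 5.76 at E18.5 and at 9.91, 10.19 and 10.05 at PND0. Its groups lay far apart, with a step of 4.13 ± 0.31 (adjusted p = 3.4e-15), and 3.79 from the libraries labelled E17.5. In wild type it stepped by 0.78 (adjusted p = 0.18), and the difference between the steps was 3.35 ± 0.44 (adjusted p = 3.1e-07). In the 63 other libraries of the study this probe set ranged from 4.37 to 9.72, and the 2 highest of these were wild-type libraries of PND1, at 9.72 and 9.57. Which Nfe2l2 transcripts it detects is not stated in the sources used here.

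Among genes in which all 3 PND0 values lay above all 3 E18.5 values, the largest rise was that of Chil3. Chil3, a chitinase-like protein of macrophages, stood at 6.87, 7.50 and 7.54 at E18.5 and at 12.44, 12.04 and 12.65 at PND0. Its step was 5.07 ± 0.56 or 33.7-fold (adjusted p = 2.1e-10). Wild type rose by 2.11, and the knockout step from E17.5 was 1.76, since the libraries labelled E17.5 stood at 10.43 to 10.86. Fam107a, an actin-associated protein gene that glucocorticoids are known to raise, stood at 6.58, 6.05 and 6.33 and then at 10.86, 11.11 and 11.58. Its step was 4.86 ± 0.31 from E18.5 and 4.55 from E17.5, against 1.52 in wild type. Apod, which encodes the lipid carrier apolipoprotein D, stood at 6.30, 5.63 and 5.66 and then at 11.18, 10.28 and 10.31. It stepped by 4.73 ± 0.49 in knockout and by 0.31 in wild type (adjusted p = 0.87).

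Among the other rises were S100g, a calcium-binding protein (4.61), Serpina3n, a protease inhibitor of the acute phase (4.56 ± 0.80), Pon1, a paraoxonase (4.43), and Stfa2l1, a stefin of the granulocyte lineage (3.97). Sgpp2, a sphingosine-1-phosphate phosphatase, rose by 3.86 and Slc13a4, a sulfate transporter, by 3.79. Cdkn1a, which encodes the cell cycle inhibitor p21, stood at 9.38, 8.86 and 9.07 and then at 12.49, 12.77 and 13.02. Its step was 3.66 ± 0.25, with 0.39 in wild type (adjusted p = 0.52) and 2.67 from E17.5. Lcn2, the iron-chelating lipocalin of inflamed epithelium and neutrophils (3.65), Arg2, the mitochondrial arginase (3.63), and F3, tissue factor, which starts coagulation (3.59 ± 0.19, adjusted p = 1.6e-20), rose as well. Cxcl17, a chemokine of mucosal tissue, rose by 3.58 and Inmt, a methyltransferase, by 3.54. From E17.5 these 15 steps ranged from 0.79 for Pon1 to 4.55 for Fam107a. Those of Pon1 (adjusted p = 0.27) and Lcn2 (adjusted p = 0.10) did not pass from there. The difference between the knockout and wild-type steps passed for 13 of the 15, and not for Serpina3n (3.15 ± 1.13, adjusted p = 0.061) or Cxcl17 (1.57 ± 0.56, adjusted p = 0.057).

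**Figure D3:**
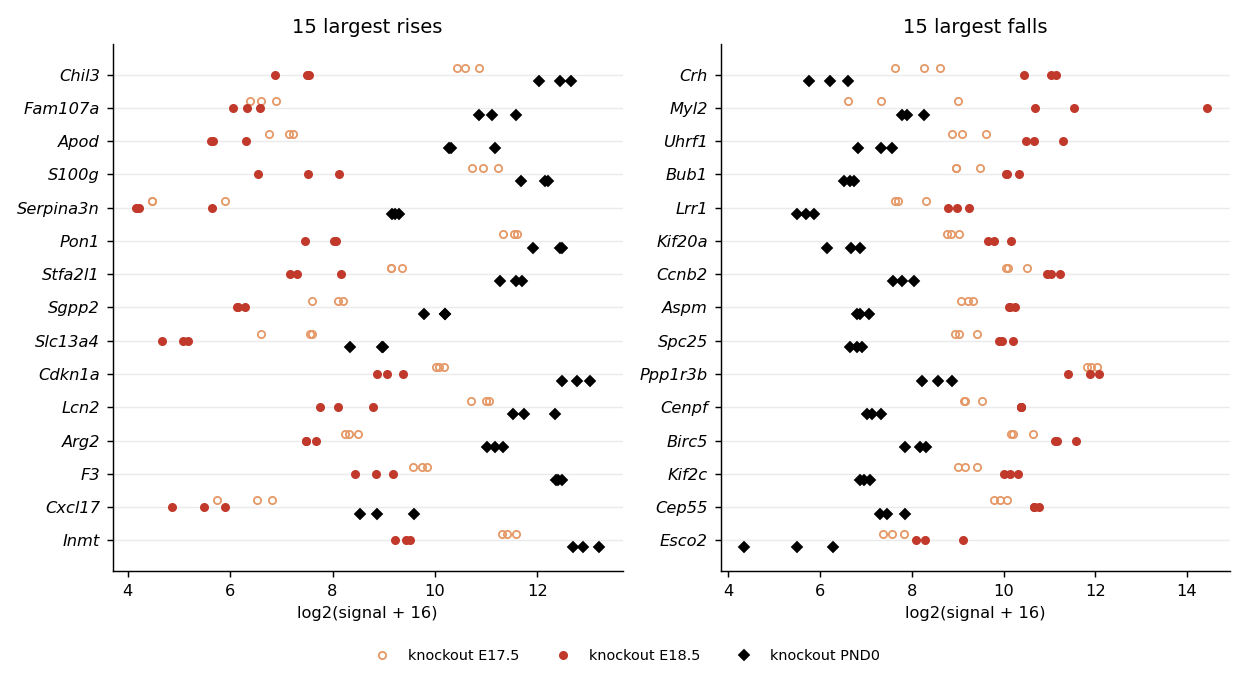
Log2 signal of each knockout library for the 15 genes with the largest rises (left) and the 15 with the largest falls (right), at labelled E17.5 (open circles), E18.5 (filled circles) and PND0 (diamonds). No E18.5 value overlaps a PND0 value, as the choice of genes required, and for most genes the mean at E17.5 lies between.

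The largest fall was that of Crh, which encodes corticotropin-releasing hormone. Crh stood at 10.44, 11.15 and 11.03 at E18.5 and at 5.76, 6.21 and 6.62 at PND0, a step of -4.68 ± 0.34 or 25.6-fold (adjusted p = 6.3e-16). The knockout libraries labelled E17.5 lay between, at 8.62, 7.63 and 8.27. Wild type fell by 1.85, from 6.94, 6.87 and 7.94 to 5.44, 5.16 and 5.59, and the difference between the steps was -2.82 ± 0.48 (adjusted p = 2.6e-05). Myl2, a myosin light chain of heart ventricle, came next at -4.24 ± 1.21, from 14.44, 11.53 and 10.68 to 8.26, 7.89 and 7.78. Without replicate 1 of E18.5, the library with the high heart signal, Myl2 no longer passed (-3.13, adjusted p = 0.086).

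Of the 13 other genes among the 15 largest falls, 12 work in cell division or in the copying of DNA and chromatin. They were Uhrf1, which maintains DNA methylation at replication (-3.59 ± 0.52), Bub1 (-3.52), Lrr1 (-3.33), Kif20a (-3.31), Ccnb2 (-3.26), Aspm (-3.25), Spc25 (-3.23), Cenpf (-3.22), Birc5 (-3.18), Kif2c (-3.17), Cep55 (-3.16) and Esco2 (-3.12). The remaining one was Ppp1r3b, which targets a phosphatase to glycogen. It stood at 11.40, 12.07 and 11.89 and then at 8.87, 8.58 and 8.23, a step of -3.23 ± 0.28. Ppp1r3b fell in wild type as well (-2.64, adjusted p = 4.3e-09), and the difference between the steps did not pass (-0.59 ± 0.40, adjusted p = 0.42).

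Genes known to respond to glucocorticoids rose together. Of 20 measured genes 18 rose and 1 fell, with a median step of 1.72, against 14.6% rising over all genes. In wild type 3 rose and 2 fell, with a median of 0.04, and from E17.5 15 rose in knockout, with a median of 1.14. The steps differed in 16 of the 20, with 15 higher and 1 lower in knockout (over all genes 6.37% were higher and 10.1% lower). In bulk RNA, more cells of a type and more RNA per cell cannot be told apart.

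Zbtb16, a transcription factor gene used as a readout of steroid action, stood at 9.04, 9.62 and 9.40 and then at 11.90, 12.33 and 12.23. All 3 PND0 libraries lay above E18.5, with a step of 2.80 ± 0.51 (adjusted p = 2e-05), 1.99 from E17.5 and -1.02 in wild type (adjusted p = 0.35). The difference between the genotypes was 3.82 ± 0.73 (adjusted p = 0.00017). Fkbp5, a co-chaperone that limits the receptor, stood at 10.73, 10.38 and 10.29 and then at 11.86, 12.00 and 12.22 (1.56 ± 0.30, and -0.23 in wild type). Tsc22d3, the anti-inflammatory protein GILZ, rose by 1.88, Klf9, a Krüppel-like factor, by 2.27 and Dusp1, a MAP kinase phosphatase, by 2.32. Pdk4, which turns off pyruvate dehydrogenase, rose by 2.72 ± 0.40 and stepped by -0.41 in wild type (adjusted p = 0.75). Errfi1, a feedback inhibitor of the EGF receptor, rose by 1.94 and the metallothionein genes Mt1 and Mt2 by 1.01 and 0.91.

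Sgk1, the kinase that keeps the epithelial sodium channel at the membrane, stood at 10.42, 10.57 and 10.53 and then at 12.98, 13.10 and 13.16. The step was 2.57 ± 0.18 (adjusted p = 2.9e-16), and wild type rose by 0.79. Angptl4, a lipase inhibitor, rose by 1.57 in knockout and by more, 2.59, in wild type (difference -1.02 ± 0.28, adjusted p = 0.01). The single fall was Cdkn1c, an imprinted growth inhibitor (-0.72 ± 0.18), and Tat (0.48) did not pass.

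The glucocorticoid receptor binds a palindrome of AGAACA and TGTTCT with 3 bases of any kind between, which reads the same on both strands. It was searched in the 250 bases before each start site in the RefSeq table (GRCm38.p6), except those of a chromosome left out of all motif searches. It was found in 3 of 27025 genes (0.0111%), and 1 of the 17 glucocorticoid response genes with an entry held it. That gene was Sgk1, at 1 of its 6 start sites in the table, at chr10:21993640-21993889 on the + strand, 189 bases before the start. The 250 bases are shown because they hold the full palindrome, which is in capitals.
Sgk1: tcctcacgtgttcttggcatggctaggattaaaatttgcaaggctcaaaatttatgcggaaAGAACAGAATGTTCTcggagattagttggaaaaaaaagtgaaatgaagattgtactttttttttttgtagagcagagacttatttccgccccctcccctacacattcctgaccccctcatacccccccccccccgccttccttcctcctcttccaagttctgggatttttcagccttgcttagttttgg
Most known glucocorticoid sites lie outside so short a window, and a match here is a description of the letters.

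Genes that make, carry or sense glucocorticoids did not rise in knockout from E18.5 at their brightest probe sets. Of 8 measured genes of this axis 4 fell and none rose in knockout, and 3 fell and 1 rose in wild type, and with array medians subtracted 2 fell in knockout. With single libraries left out up to 1 rose in knockout, and from E17.5 1 rose and 3 fell. Another probe set of Crhr1, the Crh receptor gene, rose by 1.05. Beside Crh, the receptor gene Nr3c1 fell by 0.41 in knockout (adjusted p = 0.0041) and by 0.43 in wild type (adjusted p = 0.017). Fkbp4, a co-chaperone of the receptor, fell by 1.11 ± 0.13 at its brightest probe set, while 2 others stepped by 0.11 and 0.64 without passing. Hsp90aa1 fell by 0.35. Hsd11b2, which inactivates corticosterone, stepped by -0.59 (adjusted p = 0.16) and rose by 1.36 in wild type, and the difference passed (-1.94 ± 0.42, adjusted p = 0.00085). Hsd11b1, which activates it, stepped by 0.22 without passing.

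Immediate early genes, which cells switch on within minutes of a stimulus, also rose. Of 20 measured 17 rose and 1 fell (14.6% and 19.2% over all genes), with a median step of 1.20. In wild type 2 rose and none fell, with a median of 0.41. From E17.5 13 rose and 1 fell in knockout, with a median of 1.12. Fos, a subunit of the AP-1 factor, stood at 8.67, 8.89 and 8.82 and then at 11.70, 12.17 and 12.37. Its step was 3.28 ± 0.27 (adjusted p = 3.4e-14), 2.20 from E17.5 and -0.06 in wild type. The matricellular genes Ccn2 and Ccn1 rose by 2.07 and 1.80, and Klf4, Klf6 and Klf2 by 2.04, 1.78 and 1.65. In wild type Ccn2 rose by 1.18 (adjusted p = 0.00018). Among the early growth response genes Egr3 fell (-1.50 ± 0.31), Egr2 stepped by 0.17 (adjusted p = 0.83), and Egr1 stepped by -0.29 (adjusted p = 0.52) whereas it rose by 1.35 in wild type (difference -1.64 ± 0.39, adjusted p = 0.0029). Fetal lungs were taken by surgery and PND0 lungs from newborns, so age, handling and hour cannot be told apart.

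Genes of the circadian clock rose on both of its arms. The activators Arntl and Clock drive the Per, Cry and Nr1d genes, whose proteins feed back on them, and glucocorticoids are known to set Per1. Of 17 measured genes 11 rose and none fell, with a median step of 0.78, against 14.6% rising and 19.2% falling over all genes. From E17.5 5 rose and 2 fell in knockout, with a median of 0.52. In wild type 1 rose and 3 fell, with a median of 0.02. The repressor gene Per1 stood at 9.98, 10.50 and 10.34 and then at 11.37, 11.77 and 11.83, a step of 1.39 ± 0.28, while wild type fell by 1.00 (adjusted p = 0.024). The difference was 2.39 ± 0.39 (adjusted p = 1.7e-05). Cry2 stood at 7.75, 8.38 and 7.70 and then at 9.31, 9.96 and 10.26 (1.90 ± 0.21).

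The nuclear receptor genes Nr1d1 and Nr1d2 rose by 2.22 and 2.19, and Nr1d2 rose in wild type too (1.36). Nr1d1 did not pass from E17.5 (0.92, adjusted p = 0.086). The activator Arntl rose by 1.17 and Clock by 0.46. The output genes Dbp (-0.13) and Hlf (-0.33) did not pass, and Tef rose by 0.72. Bhlhe40 rose by 0.78 from E18.5 and fell by 0.73 from E17.5. Since the hour at which lungs were taken is not stated, clock time and age cannot be told apart.

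The E-box CACGTG, which the clock activators bind, lay within the 250 bases of 5 of the 15 clock genes with an entry (33.3%) and of 6.86% of all genes. Among the other lists searched this share ranged from 0% of Nrf2 targets to 23.5% of glucocorticoid response genes. The E-box reads the same on both strands. The stretch before 1 of the 2 Per1 starts, at chr11:69098699-69098948 on the + strand, is shown because it holds one, 166 bases before the start, in capitals.
Per1: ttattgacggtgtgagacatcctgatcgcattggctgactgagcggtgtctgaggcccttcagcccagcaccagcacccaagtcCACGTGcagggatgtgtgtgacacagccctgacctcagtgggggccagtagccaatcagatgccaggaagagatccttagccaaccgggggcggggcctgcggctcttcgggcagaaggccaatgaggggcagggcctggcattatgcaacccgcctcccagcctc

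Cell division genes fell almost without exception. Of 26 measured 25 fell and none rose, with a median step of -2.63, against 19.2% falling over all genes. The exception was Foxm1 (-0.12, adjusted p = 0.81), of whose 3 other probe sets 1 fell. In wild type 3 fell, with a median of -0.74, and from E17.5 20 fell, with a median of -1.62. The steps differed in 24 of the 26, all lower in knockout. Part of the gap lay at the starting group. The list averaged 10.69, 10.34 and 10.32 in knockout E18.5 and 9.07, 9.11 and 9.95 in wild-type E18.5, and it reached 8.19, 8.16 and 7.95 in knockout PND0 against 8.43, 9.30 and 8.57 in wild-type PND0. The highest wild-type library of each age, replicate 3 of E18.5 and replicate 2 of PND0, was also high in the 10 thymocyte genes, at 8.55 and 9.33 against 4.82 to 6.85 in the other 4. Without replicate 2 of wild-type PND0 the steps differed in 13 of the 26, and without both libraries in 19, all lower in knockout. The wild-type count of falls was 0 without replicate 3 of wild-type E18.5 and 5 without replicate 2 of wild-type PND0. These alternatives were chosen after seeing the data.

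Genes of mitosis were among those that fell. Top2a, the topoisomerase that untangles replicated chromosomes, stood at 11.87, 11.61 and 11.61 and then at 8.65, 9.03 and 8.69, a step of -2.90 ± 0.41. Cdk1, the kinase that starts mitosis, stood at 11.57, 11.48 and 11.42 and then at 8.91, 8.64 and 8.53 (-2.80 ± 0.30, and -1.07 in wild type, adjusted p = 0.028). The cyclin genes Ccnb2 and Ccna2 fell by 3.26 and 2.96, and Mki67, the proliferation marker Ki-67, by 2.70.

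Genes of DNA replication fell in knockout, whereas the 6 measured helicase genes Mcm2 to Mcm7 stepped by -0.27 to 0.08 in wild type and none passed there. Mcm2, a subunit of the replicative helicase, stood at 10.68, 10.06 and 10.15 and then at 8.02, 7.32 and 7.25. The step was -2.77 ± 0.31 in knockout and -0.02 in wild type (adjusted p = 0.99), with a difference of -2.75 ± 0.44 (adjusted p = 1.1e-05). The other measured helicase genes Mcm3, Mcm4, Mcm5, Mcm6 and Mcm7 fell by 1.59 to 2.65 in knockout. Ccne1, the cyclin of the entry to S phase, fell by 1.87, E2f1 by 2.20 and the sliding clamp gene Pcna by 1.38. From E17.5 Mcm6 (-0.75), Mcm7 (-0.67) and Pcna (-0.58, adjusted p = 0.073) did not pass.

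Promoters of cell cycle genes are known for CCAAT boxes, for the CHR element TTTGAA and for E2F sites, searched here as TTTCCCGC and TTTGGCGC. All were searched on both strands, where CCAAT reads ATTGG and TTTGAA reads TTCAAA. The box CCAAT lay in 18 of the 22 cell cycle genes with an entry (81.8%), against 37.5% of all genes. TTTGAA lay in 7 (31.8%), against 18.3%, and an E2F letter string in 3 (13.6%), against 1.51%. Among the other lists searched the share with CCAAT ranged from 37.5% of immediate early genes to 100% of cholesterol synthesis genes. The 4 stretches below are shown as examples of genes whose promoters hold several of these letters. Capitals mark CCAAT and TTTGAA in Ccnb2 (chr9:70421555-70421804), Cdk1 (chr10:69352913-69353162) and Top2a (chr11:99024190-99024439), and CCAAT and the E2F letters in Mcm6 (chr1:128359706-128359955). All 4 are on the - strand of GRCm38.p6 and end 1 base before the start.
Ccnb2: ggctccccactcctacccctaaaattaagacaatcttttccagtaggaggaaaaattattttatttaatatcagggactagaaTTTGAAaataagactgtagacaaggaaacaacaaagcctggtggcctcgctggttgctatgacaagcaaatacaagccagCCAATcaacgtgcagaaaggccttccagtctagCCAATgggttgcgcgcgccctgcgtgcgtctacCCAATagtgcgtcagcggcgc
Cdk1: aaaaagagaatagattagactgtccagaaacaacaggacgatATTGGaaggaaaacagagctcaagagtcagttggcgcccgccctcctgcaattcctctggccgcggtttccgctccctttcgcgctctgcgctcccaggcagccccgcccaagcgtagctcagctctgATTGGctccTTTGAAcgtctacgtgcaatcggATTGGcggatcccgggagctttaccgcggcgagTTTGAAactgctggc
Top2a: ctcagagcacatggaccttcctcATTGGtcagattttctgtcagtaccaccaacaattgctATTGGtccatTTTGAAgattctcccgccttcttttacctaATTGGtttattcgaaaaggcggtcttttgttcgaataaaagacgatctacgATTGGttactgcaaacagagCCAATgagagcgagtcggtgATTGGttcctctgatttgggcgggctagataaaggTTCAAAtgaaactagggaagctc
Mcm6: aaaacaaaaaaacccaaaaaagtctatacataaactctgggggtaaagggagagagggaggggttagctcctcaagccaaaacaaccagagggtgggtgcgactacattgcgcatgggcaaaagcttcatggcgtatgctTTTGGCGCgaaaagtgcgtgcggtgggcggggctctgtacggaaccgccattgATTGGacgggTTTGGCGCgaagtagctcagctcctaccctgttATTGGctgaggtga
In Ccnb2 the 3 CCAAT boxes begin 87, 54 and 21 bases before the start, and in Mcm6 the E2F letters begin 110 and 47 bases before it. The letters describe the promoters and were not linked to the fall by a test.

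Cholesterol synthesis genes fell in knockout while some of them rose in wild type. Of 16 measured genes 12 fell and 2 rose (19.2% and 14.6% over all genes), with a median of -0.79. From E17.5 9 fell and 2 rose in knockout, with a median of -0.50. In wild type 5 rose (8 without replicate 3 of wild-type E18.5) and none fell, with a median of 0.35, and the steps differed in 13, of which 12 were lower in knockout. Idi1, isopentenyl diphosphate isomerase, stood at 10.70, 10.42 and 10.40 and then at 9.65, 8.99 and 9.30. The step was -1.19 ± 0.18, against 0.51 in wild type (adjusted p = 0.096), with a difference of -1.71 ± 0.25 (adjusted p = 2.6e-06). Sqle, squalene epoxidase, stood at 10.10, 10.15 and 9.97 and then at 9.68, 8.61 and 9.04 (-0.96 ± 0.17), and rose by 0.73 in wild type. From E17.5 Sqle stepped by -0.20 and did not pass (adjusted p = 0.50). Dhcr7, of the last step of the pathway, fell by 1.55, Mvk, mevalonate kinase, by 1.18 and Hmgcs1, of its entry, by 0.61.

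The exceptions were Pmvk, phosphomevalonate kinase, which stood at 8.67, 8.66 and 8.39 and then at 10.55, 10.31 and 11.47, and Lss, which makes lanosterol. Pmvk rose by 2.20 in knockout and by 0.80 in wild type, and Lss by 1.19 and 0.95, where 2 other Lss probe sets did not pass. The regulators Srebf2 (-0.17) and Insig1 (-0.01) did not pass.

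All 13 genes of the list with an entry held CCAAT in the 250 bases, against 37.5% of all genes. The stretches before Mvk (chr5:114444019-114444268) and Hmgcs1 (chr13:119690101-119690350), both on the + strand, are shown for the number of their boxes, in capitals on either strand.
Mvk: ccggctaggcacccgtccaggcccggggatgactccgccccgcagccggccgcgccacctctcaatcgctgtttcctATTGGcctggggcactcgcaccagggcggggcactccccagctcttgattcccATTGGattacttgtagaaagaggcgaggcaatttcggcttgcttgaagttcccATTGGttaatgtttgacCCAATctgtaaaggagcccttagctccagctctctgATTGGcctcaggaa
Hmgcs1: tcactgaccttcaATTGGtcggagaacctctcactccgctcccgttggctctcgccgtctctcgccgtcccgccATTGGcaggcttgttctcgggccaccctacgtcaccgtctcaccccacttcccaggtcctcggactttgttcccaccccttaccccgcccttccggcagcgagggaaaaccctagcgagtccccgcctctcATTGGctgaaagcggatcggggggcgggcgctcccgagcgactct

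Genes of fatty acid synthesis and storage were split. Of 16 measured 4 rose and 7 fell in knockout (14.6% and 19.2% over all genes), and 2 rose and 8 fell from E17.5. Lpin1, which makes diacylglycerol and is a known glucocorticoid target, stood at 8.17, 8.79 and 8.93 and then at 10.20, 10.95 and 10.69. It rose by 1.99 ± 0.18 in knockout and fell by 0.63 in wild type. Scd1, stearoyl-CoA desaturase, rose by 1.97, but from E17.5 it stepped by -0.50 (adjusted p = 0.48). Fads2 and Elovl6, of desaturation and elongation, fell by 1.02 and 0.98.

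Of 15 genes of lung fluid clearance 7 rose, 1 fell and 7 did not pass, with a median of 0.52, against 14.6% rising over all genes. From E17.5 6 rose and 1 fell in knockout, with a median of 0.07. In wild type 4 rose and 1 fell, and 1 rose without replicate 3 of wild-type E18.5. Scnn1g, the gamma subunit of the epithelial sodium channel, stood at 8.73, 9.85 and 9.58 and then at 11.98, 12.14 and 11.87 (2.61 ± 0.28, adjusted p = 9.7e-11). The alpha and beta subunits Scnn1a and Scnn1b rose by 2.14 and 2.00. All 3 subunits rose in wild type as well, by 0.95, 1.47 and 1.03 for Scnn1a, Scnn1b and Scnn1g. The difference between the steps passed for Scnn1a (1.19) and Scnn1g (1.58) and not for Scnn1b (0.53, adjusted p = 0.45). Atp1b1, of the sodium pump, rose by 1.01 and the water channel genes Aqp1 and Aqp5 by 2.14 and 2.50. Ano1, a chloride channel of fluid secretion, fell by 1.06. Nedd4l, which removes the sodium channel from the membrane, stepped by 0.17 in knockout and fell by 1.18 in wild type (difference 1.35 ± 0.22, adjusted p = 1.6e-05).

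**Figure D4:**
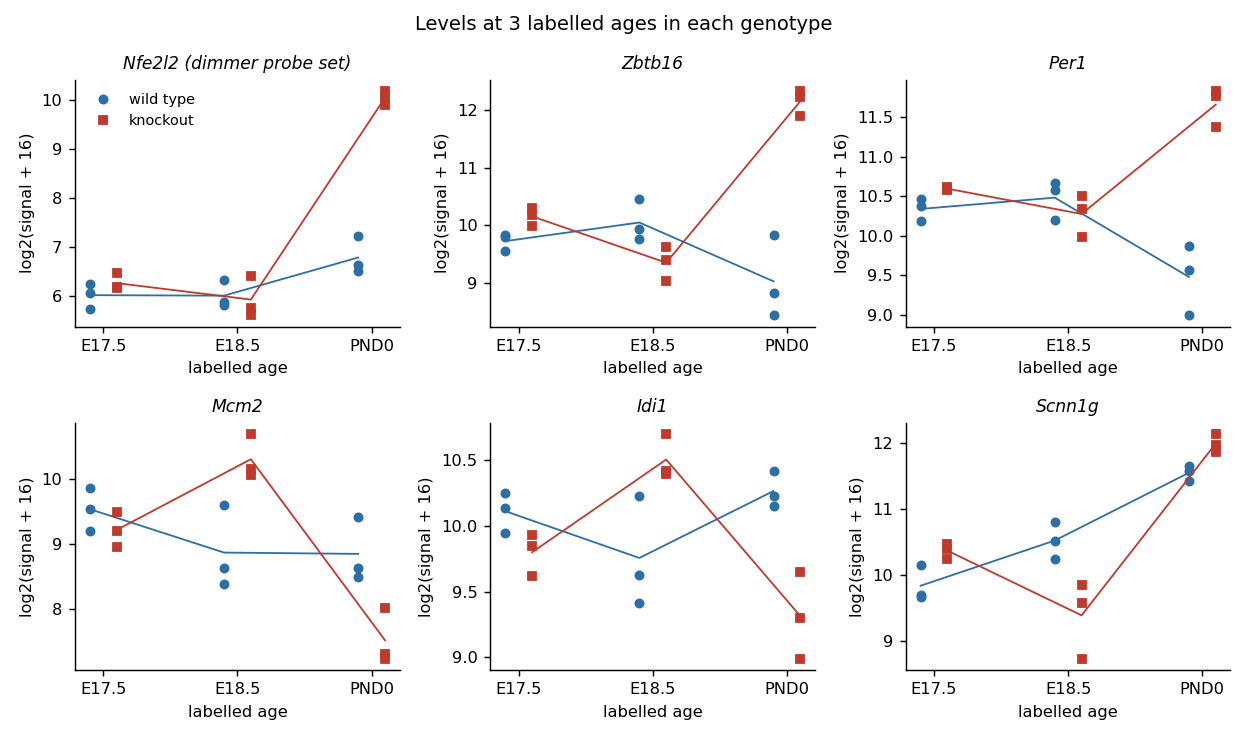
Log2 signal of each library (points; lines join the means of 3) for the dimmer Nfe2l2 probe set, Zbtb16, Per1, Mcm2, Idi1 and Scnn1g at labelled E17.5, E18.5 and PND0 in wild type (circles) and knockout (squares). In all 6 panels the knockout mean at E18.5 lies farther from PND0 than the mean at E17.5, and the knockout step from E18.5 is larger in size than the wild-type step.

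Epithelial genes rose in part from E18.5. Of 18 surfactant and type 2 cell genes 7 rose and 2 fell in knockout (14.6% and 19.2% over all genes), against 0 and 1 in wild type. From E17.5 1 rose and 4 fell, with a median of 0.04 against 0.57 from E18.5. Sftpd, a collectin of the surfactant, stood at 9.45, 10.82 and 10.82 and then at 13.93, 13.69 and 13.72, a step of 3.41 ± 0.41. Wild type stepped by 1.09 (adjusted p = 0.14), and the knockout step from E17.5 was 1.44. Sftpa1 rose by 1.17 and Sftpb by 0.92, while Sftpc, the most abundant, stayed at 14.66 to 14.72 in all 6 libraries (0.00 ± 0.22). The secreted enzymes Lyz1 and Chia1 rose by 2.04 and 2.76, but from E17.5 their steps were 0.20 and 0.73 and did not pass. Etv5, a factor of the type 2 cell, fell by 0.83.

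Among 15 type 1 cell genes 8 rose and 1 fell (14.6% and 19.2% over all genes), against 4 and 1 from E17.5. Aqp5 led, from 8.55, 9.34 and 9.35 to 11.53, 11.50 and 11.72, with 0.64 from E17.5 (adjusted p = 0.29), and Ager did not pass (0.48). The count of type 1 genes that rose was 4 without E18.5 replicate 1 and 5 without PND0 replicate 2. Of 11 club cell genes 6 rose and 1 fell, against 1 and 1 from E17.5. Scgb1a1, the main club cell secretion, stood at 12.55, 12.88 and 13.14 and then at 14.89, 14.89 and 14.99 (2.06 ± 0.50). Of 17 ciliated cell genes 1 rose and 2 fell, and their master factor Foxj1 did not pass (0.11).

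Of 18 endothelial genes 11 rose and 1 fell (14.6% and 19.2% over all genes), with a median of 0.64. In wild type 3 rose and none fell, and from E17.5 7 rose and 2 fell in knockout. Car4, the carbonic anhydrase of lung capillaries, stood at 6.30, 6.16 and 6.49 and then at 9.41, 9.58 and 9.37. It rose by 3.14 ± 0.34 in knockout and by 1.39 in wild type, and by 0.58 from E17.5, which did not pass (adjusted p = 0.28). Pecam1, present on all endothelium, stood at 10.34, 10.83 and 10.75 and then at 11.56, 11.67 and 11.78 (1.03), and Cldn5, of their tight junctions, rose by 1.04. Aplnr, the apelin receptor, fell by 0.94 (0.22 in wild type, difference -1.16 ± 0.27).

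Of 18 neutrophil and inflammation genes 12 rose (14.6% over all genes), with a median of 1.98. In wild type 4 rose (1 without replicate 3 of wild-type E18.5), and from E17.5 10 rose in knockout. S100a9, a calcium-binding protein of neutrophils, stood at 8.50, 8.51 and 8.93 and then at 12.13, 12.02 and 12.00 (3.40 ± 0.47). It rose by 1.62 in wild type, and the difference did not pass (1.78 ± 0.67, adjusted p = 0.075). Il1r2, the decoy receptor for interleukin 1, rose by 3.33, while Il6 (-0.11) and Ccl2 (-0.66) did not pass.

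Of 16 macrophage genes 10 rose (14.6% over all genes). In wild type 7 rose (4 without replicate 2 of wild-type PND0), and from E17.5 2 rose in knockout. Lyz2, the lysozyme of macrophages, stood at 11.35, 11.81 and 11.91 and then at 14.02, 13.85 and 14.03 (2.28 ± 0.35), with 0.05 from E17.5 (adjusted p = 0.96). Marco, a scavenger receptor, rose by 2.81 and by 1.80 in wild type. Adgre1, which encodes F4/80, did not pass (0.32). Of 14 interferon response genes 9 rose, with a median of 1.13, against 0 in wild type and 4 from E17.5. Ifit3 stood at 5.41, 5.88 and 5.21 and then at 7.99, 8.09 and 8.10 (2.56 ± 0.37), and Irf7, a master factor of the response, rose by 1.47. The difference between the steps passed for Irf7 (1.28) and not for Ifit3 (1.44 ± 0.52, adjusted p = 0.064).

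**Figure D5:**
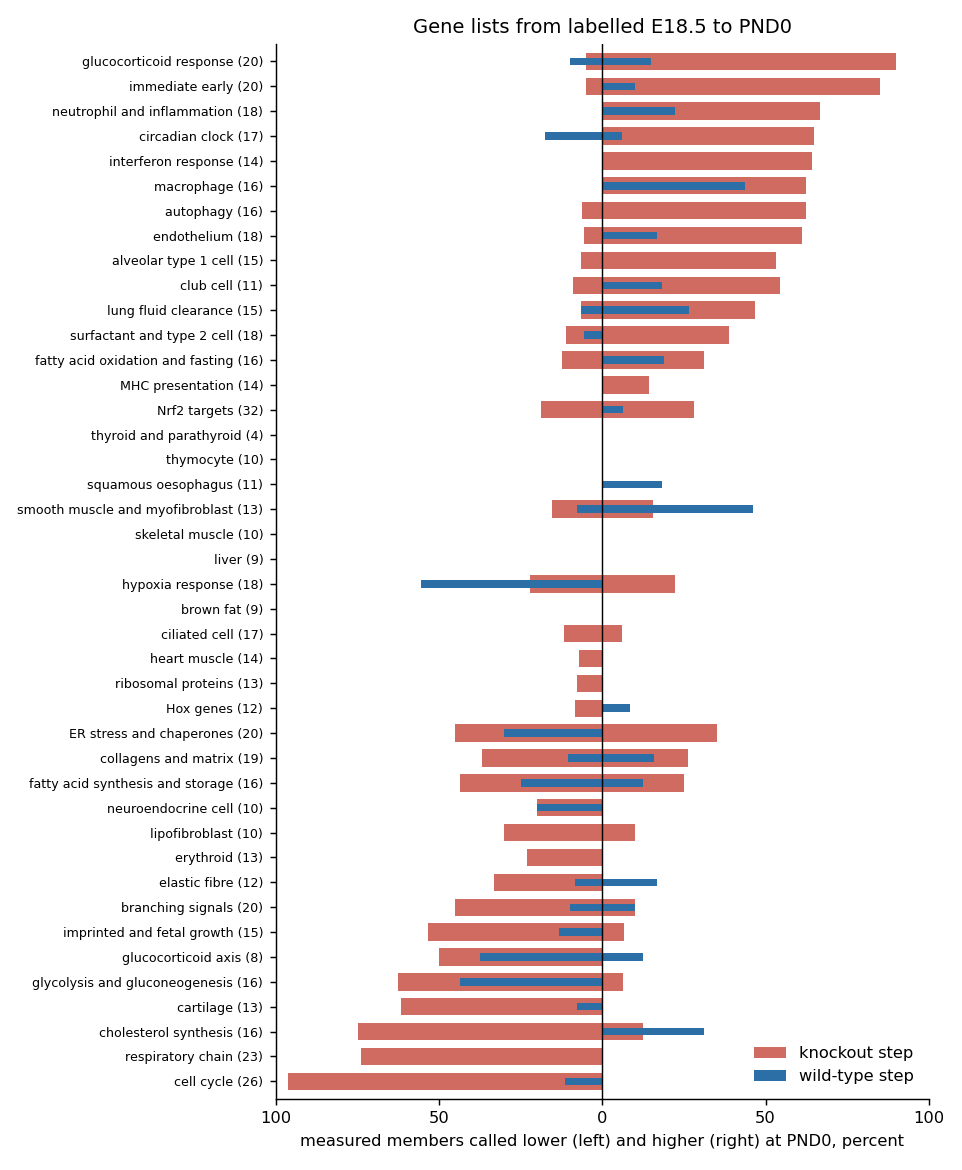
Share of the measured members (number in brackets) of each of 42 gene lists that rose (right) or fell (left) from labelled E18.5 to PND0, in percent, for knockout (wide bars) and wild type (narrow bars). Glucocorticoid response (18 of 20) and immediate early genes (17 of 20) stand at the top and cell cycle genes (25 of 26) at the bottom.

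Hypoxia genes fell in wild type, and few passed in either direction in knockout. Of 18 measured 4 rose and 4 fell in knockout, with a median of 0.00. Over all genes 14.6% rose and 19.2% fell. From E17.5 3 rose and 6 fell in knockout, with a median of -0.28. In wild type 10 fell and none rose, with a median of -0.74. The steps differed in 7, all higher in knockout. Bnip3, of mitochondrial autophagy, stood at 11.68, 11.61 and 11.39 and then at 12.62, 12.80 and 12.85. It rose by 1.20 ± 0.15 and fell by 0.77 in wild type (difference 1.97 ± 0.21, adjusted p = 2e-09). Adm, the vessel-dilating peptide adrenomedullin, rose by 1.89 and stepped by -0.94 in wild type (adjusted p = 0.065). Slc2a1, the glucose transporter GLUT1, stepped by -0.10 in knockout (adjusted p = 0.69) and fell by 1.32 in wild type. Egln3 and Ankrd37 fell in both genotypes, by 1.21 and 0.79 in knockout and by 1.85 and 1.73 in wild type.

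Of 16 glycolysis and gluconeogenesis genes 10 fell and 1 rose in knockout (19.2% and 14.6% over all genes). In wild type 7 fell, and from E17.5 8 fell in knockout. Pfkl, the liver-type phosphofructokinase, stood at 10.43, 10.03 and 10.10 and then at 8.30, 7.62 and 7.29 (-2.45 ± 0.18, and -1.75 in wild type). Tpi1 fell by 1.70 and Ldha by 1.22, and wild type fell by 0.87 and 0.92. The difference between the steps passed for 1 gene of the list.

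Of 23 respiratory chain genes 17 fell (19.2% over all genes), with a median of -0.44, against none in wild type and 8 from E17.5. The largest were Sdhc (-0.98), whose other probe set stepped by 0.19 without passing, and Ndufa4 (-0.69 ± 0.13). This count depended on single libraries and on the scaling. It was 7 without E18.5 replicate 1, whose list mean was 12.84 against 12.45 and 12.47, 9 without PND0 replicate 2, 9 with the values as deposited, 10 with only the 6 libraries of the comparison fitted and 6 with array medians subtracted. The 13 ribosomal protein genes held 1 fall, with a median of -0.04.

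Of 16 autophagy genes 10 rose and 1 fell (14.6% and 19.2% over all genes), against none in wild type, with a median of 0.39. Gabarapl1, which builds autophagosomes, stood at 9.56, 9.76 and 9.84 and then at 10.83, 11.11 and 11.35 (1.38 ± 0.15, and 0.32 in wild type). Foxo3, a factor of fasting, rose by 1.10 and stepped by -0.45 in wild type (difference 1.55 ± 0.28). Of 20 genes of chaperones and stress of the endoplasmic reticulum 9 fell and 7 rose, against 6 and 0 in wild type (3 and 0 without replicate 3 of wild-type E18.5). Sdf2l1 stood at 9.64, 9.53 and 9.89 and then at 7.82, 6.91 and 7.45 (-2.30 ± 0.20), Calr fell by 1.41 and Hspa5, the main chaperone of the compartment, by 0.89. Hspa1a, the inducible heat shock protein of the cytosol, rose by 1.66 and Trib3, a pseudokinase of the stress response, by 1.06.

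Of 20 branching signals 9 fell and 2 rose (19.2% and 14.6% over all genes), against 2 and 2 in wild type and 8 and 2 from E17.5. Wnt2, a ligand of the lung mesenchyme, stood at 10.40, 10.96 and 11.01 and then at 8.81, 9.24 and 8.57 (-1.92 ± 0.24, and -1.94 from E17.5). Shh, the epithelial ligand of the hedgehog pathway, fell by 1.36 and its target Gli1 by 1.27, and Gli1 rose by 0.90 in wild type (difference -2.17 ± 0.31, adjusted p = 1.4e-06). Mycn fell by 1.53. Of 15 imprinted and fetal growth genes 8 fell and 1 rose, with Igf1 at -1.32 and Grb10 at -1.03, and the count of falls was 5 without PND0 replicate 3. From E17.5 4 genes of this list fell and 2 rose, with a median of -0.27 against -0.65 from E18.5.

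Of 19 collagen and matrix genes 5 rose and 7 fell (14.6% and 19.2% over all genes), with a median of -0.15. From E17.5 3 rose and 1 fell in knockout, with a median of 0.11. Vcan, the proteoglycan versican of immature matrix, stood at 11.26, 11.31 and 11.31 and then at 9.81, 9.06 and 9.02. It fell by 2.00 ± 0.23 and rose by 1.05 in wild type (difference -3.05 ± 0.33, adjusted p = 4.7e-09), with -0.40 from E17.5 (adjusted p = 0.26). The 4 basement membrane collagens of the list, Col4a1, Col4a2, Col4a3 and Col4a4, rose by 0.44 to 2.23. The count of matrix genes that fell was 2 without E18.5 replicate 1, 4 without E18.5 replicate 3, 4 without PND0 replicate 2, 1 without PND0 replicate 3 and 3 with array medians subtracted. Fbn2, fetal fibrillin, stood at 12.83, 13.07 and 12.78 and then at 10.45, 10.22 and 10.12 (-2.63 ± 0.23, and -0.44 in wild type), while elastin, Eln, did not pass (0.29).

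Nrf2 target genes include those of glutathione and thioredoxin metabolism. Of 32 measured 9 rose and 6 fell, with a median of 0.10, so the share that fell lay near the 19.2% of all genes, and with the values as deposited 6 rose, against 14.6% of all genes. From E17.5 6 rose and 7 fell in knockout, with a median of -0.09. In wild type 2 rose, with a median of 0.09. The steps differed in 7, with 2 higher and 5 lower in knockout. Gstm1, a glutathione transferase, stood at 9.41, 9.53 and 9.70 and then at 10.73, 10.69 and 10.53 (1.10 ± 0.21, and -0.02 in wild type). Ephx1, epoxide hydrolase, rose by 1.11, Srxn1, which repairs peroxiredoxins, by 0.97 and Hmox1, heme oxygenase, by 0.78. Txnrd1, thioredoxin reductase, stood at 10.71, 10.34 and 10.46 and then at 9.87, 9.76 and 9.77. It fell by 0.71 ± 0.13 and stepped by 0.38 in wild type (difference -1.09 ± 0.19, adjusted p = 3.4e-05). Nqo1, the classic Nrf2 target, fell by 0.57 (adjusted p = 0.035) and stepped by 0.62 in wild type, with a difference of -1.19 ± 0.29. From E17.5 neither Txnrd1 (-0.11) nor Nqo1 (-0.17) passed. Tkt, transketolase, fell by 0.60 at its brightest probe set, but of 2 other Tkt probe sets 1 fell and 1 rose.

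The genes whose step was higher in knockout by the most were Pon1 (difference 4.78 ± 0.65), Slc13a4 (4.76 ± 0.61), Apod (4.42), Gdpd2 (3.93), Klf15 (3.92) and Atp6v0a4 (3.85). Pon1 stood at 7.46, 8.06 and 8.03 and then at 12.48, 11.92 and 12.44 in knockout, and at 11.38, 11.36 and 10.03 and then at 10.53, 10.56 and 10.62 in wild type. The genotypes thus lay farther apart at E18.5 than at PND0, and the knockout libraries labelled E17.5 stood at 11.32, 11.60 and 11.55. Klf15, a Krüppel-like factor that glucocorticoids are known to raise, stood at 8.83, 9.30 and 9.19 and then at 11.17, 11.64 and 11.76, while wild type fell by 1.50. Wild-type Klf15 stood at 10.20, 10.11 and 9.43 and then at 8.22, 8.59 and 8.42, so the genotypes changed order between the ages. Atp6v0a4, of a proton pump, rose by 2.27 in knockout and fell by 1.58 in wild type.

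Those whose step was lower in knockout by the most were C1qtnf3 (-4.27 ± 1.05), Col2a1 (-4.12 ± 1.42), Uhrf1 (-3.45), Nefl (-3.45), Cnmd (-3.19) and Igdcc4 (-3.12). Col2a1 and Cnmd belong to cartilage. Col2a1 stood at 13.02, 8.78 and 8.62 and then at 8.40, 6.89 and 6.38, and replicate 1 of E18.5 stood far above the others. Without E18.5 replicate 1 the difference did not pass for Col2a1 (-2.68, adjusted p = 0.28) or Cnmd (-2.25, adjusted p = 0.21). Nor did either pass without knockout PND0 replicate 2 or 3, wild-type E18.5 replicate 1 or 2, or wild-type PND0 replicate 2, and Col2a1 also not without wild-type PND0 replicate 1 or 3. Over these 8 libraries, each left out alone, Col2a1 lay between -4.37 and -2.68 (adjusted p = 0.053 to 0.28), and over the 6 of Cnmd that gene lay between -3.12 and -2.20 (adjusted p = 0.069 to 0.21). Nefl did not pass with only the libraries of the comparison (adjusted p = 0.088). Of the 13 cartilage genes 8 fell, 2 without E18.5 replicate 1, 4 without PND0 replicate 3 and 2 with only the 6 libraries of the comparison fitted. From E17.5 2 cartilage genes fell in knockout.

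Other lists had few calls or calls in both directions. Over all genes 14.6% rose and 19.2% fell in knockout. Of 13 smooth muscle and myofibroblast genes 2 rose and 2 fell in knockout, against 6 and 1 in wild type, and the steps differed in 7, of which 6 were lower in knockout (3 without replicate 2 of wild-type PND0). The knockout count of falls was 0 without E18.5 replicate 3 or without PND0 replicate 2. Of 12 elastic fibre genes 4 fell and of 10 lipofibroblast genes 3 fell and 1 rose. Of 14 MHC presentation genes 2 rose, of 13 erythroid genes 3 fell, of 12 Hox genes 1 fell and of 16 genes of fatty acid oxidation and fasting 5 rose and 2 fell. Of 10 neuroendocrine genes 2 fell, and 4 without E18.5 replicate 2. Their median was -0.47, and 0.02 without E18.5 replicate 1, whose mean over the list was 7.88 against 6.74 and 6.91. The Hox count was 2 without E18.5 replicate 2 or without PND0 replicate 1, and 1 gene of fatty acid oxidation fell without E18.5 replicate 1. None of the measured genes of liver (9), skeletal muscle (10), squamous oesophagus (11), thymocytes (10), brown fat (9) or thyroid and parathyroid (4) passed in the knockout step, and 1 of 14 heart muscle genes fell.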

How the data were processed

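Lung RNA of 66 samples was hybridised to 1 Affymetrix array each. The deposited values are linear signal intensity per probe set, made by the authors with GCOS per the submitters' processing notes, which name no version; the algorithm and scaling target are not stated in the sources used here. A 2% trimmed mean of 500 was found on 42 arrays, and the 24 others were those of PND1 to PND4. With no counts in the files, the number of arrays limits the precision.

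All arrays were quantile normalized and log2(signal + 16) was fitted with limma 3.58.1 (lmFit, eBayes with an intensity trend) in R 4.3.3, with 22 group means. The residual degrees of freedom were 44 and the prior ones 6.69. P-values were Benjamini-Hochberg adjusted over 45037 probe sets, after 64 controls were left out, and the code was tested on simulated data. An exact permutation of 3 against 3 samples cannot go below 0.10. GEO's platform annotation gave 1 symbol to 34945 probe sets, several to 932 and none to 9160, and it can be old. The brightest of a gene's probe sets stands for it.

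Named genes were all Nfe2l2 probe sets, the 15 largest rises and 15 largest falls with groups that do not overlap, the 6 largest differences between steps in each direction, and members of 42 gene lists (637 of 696 entries measured), with predicted loci and sex-linked genes passed over. The members and lists were chosen with earlier results of these data known. Promoters came from the RefSeq table (GRCm38.p6), with a whole chromosome left out, so that its genes count as having no entry. Alternatives were other scalings, pseudocounts, filters, variance models, sets of libraries, a replicate block and leaving out each library.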

Additional observations from a re-analysis of the deposited data

Results flagged for a closer look

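The results below differ between the genotypes: each value is the knockout step from labelled E18.5 to PND0 minus the wild-type step, in log2 units, and each passed limma's test of that difference over all probe sets. No library is shared between the 2 steps, and 5188 probe sets passed. The knockout libraries labelled E18.5 lay at 0.44 on the wild-type age scale and the wild-type ones at 0.79, and the part of this gap in the differences was not tested. The dimmer Nfe2l2 probe set differed by 3.35. All other values are those of each gene's brightest probe set, and the other probe sets of Sdhc and Fkbp4 did not pass in the knockout step.

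Among the largest rises and the genes whose steps differed most upward, the differences were those of Pon1 (4.78), Slc13a4 (4.76), Apod (4.42), Gdpd2 (3.93), Klf15 (3.92), Atp6v0a4 (3.85), F3 (3.37), Fam107a (3.35), Cdkn1a (3.27), Chil3 (2.96), Inmt (2.94), Lcn2 (2.91), S100g (2.79), Arg2 (2.38), Stfa2l1 (2.13) and Sgpp2 (1.99). Of the glucocorticoid response genes they were Zbtb16 (3.82), Pdk4 (3.14), Klf9 (2.52), Errfi1 (2.17), Dusp1 (1.80), Fkbp5 (1.79), Sgk1 (1.78), Tsc22d3 (1.54) and Angptl4 (-1.02), and of the genes of the axis Crh (-2.82), Hsd11b2 (-1.94) and Fkbp4 (-0.77). Immediate early genes differed at Fos (3.35), Klf4 (1.47), Klf6 (1.29), Ccn1 (1.26), Klf2 (1.04), Ccn2 (0.89) and Egr1 (-1.64). In the clock, Per1 (2.39), Bhlhe40 (1.64), Tef (1.40), Cry2 (1.22), Arntl (1.01) and Nr1d2 (0.83) were higher in knockout.

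Of 26 cell division genes 24 had lower steps in knockout, and 13 without replicate 2 of wild-type PND0. The genes named next were drawn from this list and from the largest falls, and are not a listing of the 24. In mitosis and its control they were Bub1 (-2.52), Kif20a (-2.40), Spc25 (-2.37), Ccnb2 (-2.31), Aspm (-2.30), Birc5 (-2.19), Kif2c (-1.94), Cenpf (-1.90), Top2a (-1.86), Ccna2 (-1.78), Cdk1 (-1.72), Mki67 (-1.71) and Cep55 (-1.65). In replication and chromatin they were Uhrf1 (-3.45), Lrr1 (-2.80), Mcm2 (-2.75), Mcm3 (-2.51), Esco2 (-2.46), Mcm5 (-2.38), Ccne1 (-2.06), Mcm4 (-1.90), Mcm7 (-1.67), E2f1 (-1.58), Mcm6 (-1.57) and Pcna (-1.46). Lipid genes differed in both directions, with Idi1 (-1.71), Sqle (-1.69), Dhcr7 (-1.46), Mvk (-1.44), Hmgcs1 (-0.83), Elovl6 (-1.30) and Fads2 (-0.89) lower and Scd1 (2.83), Lpin1 (2.62) and Pmvk (1.41) higher.

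In epithelium and fluid transport, Chia1 (2.77), Sftpd (2.32), Aqp5 (2.28), Lyz1 (2.19), Scnn1g (1.58), Aqp1 (1.51), Nedd4l (1.35) and Scnn1a (1.19) had higher steps in knockout. Vessel genes differed at Car4 (1.75), Cldn5 (0.97), Pecam1 (0.84) and Aplnr (-1.16), and immune genes at Il1r2 (2.35), Lyz2 (2.15) and Irf7 (1.28). Of 18 endothelial genes 6 had higher and 1 lower steps in knockout, and 2 and 1 without replicate 2 of wild-type PND0. Hypoxia, autophagy and stress genes differed at Adm (2.83), Bnip3 (1.97), Foxo3 (1.55), Trib3 (1.34), Slc2a1 (1.22), Gabarapl1 (1.06), Hspa1a (1.03), Calr (-0.91) and Sdf2l1 (-1.52), and respiratory chain genes at Ndufa4 (-0.97) and Sdhc (-0.84). Of 23 respiratory chain genes 7 had lower steps in knockout. The count was 2 without replicate 2 of wild-type PND0 and 13 without replicate 3 of wild-type E18.5.

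Some growth and matrix genes had lower steps in knockout, at Vcan (-3.05), Fbn2 (-2.20), Gli1 (-2.17), Wnt2 (-1.64), Mycn (-1.50), Igf1 (-1.19), Shh (-1.14) and Grb10 (-0.78). In their whole lists 2 collagen and matrix genes had higher and 5 lower steps, with a median difference of -0.08. The counts were 1 higher and 7 lower for branching signals, 1 and 3 for imprinted and fetal growth genes, and 1 and 3 for elastic fibre genes. Among Nrf2 targets the differences were those of Nqo1 (-1.19), Tkt (-1.13), Txnrd1 (-1.09) and Gstm1 (1.13). The largest differences downward were C1qtnf3 (-4.27), Col2a1 (-4.12), Nefl (-3.45), Cnmd (-3.19) and Igdcc4 (-3.12), of which Col2a1 did not pass without any of 8 single libraries and Cnmd without any of 6. Nefl did not pass with only the libraries of the comparison (adjusted p = 0.088).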

How the results depend on the processing

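In the knockout step, 9651 to 10656 probe sets passed when each of its 6 libraries was left out, of which 80.1% to 86.7% of the 11535 remained. The count was within 1.5 times the main one under every alternative except 1 probe set per gene, which tests fewer features and gave 6453, with 1187 in wild type, 3313 for the difference between steps and 5198 from E17.5. With array weights 3828 passed in wild type and 8069 for the difference. With only the libraries of the comparison 1183 passed in wild type, and 356 with a replicate block added. Leaving out single libraries gave 3723 to 5900 for the difference and 7065 to 7884 from E17.5. In wild type it gave 1107 to 1592, with 1107 and 1180 without E18.5 replicates 1 and 2, and 1118 and 1169 without PND0 replicates 1 and 3. The cause of these moves was not tested. Replicate numbers only name the samples: the correlation of same-numbered deviations was 0.19, 0.13 and 0.03 in knockout and 0.18, -0.22 and -0.18 in wild type. With the replicate block over all libraries 11537, 1873, 5187 and 9027 probe sets passed for the knockout step, the wild-type step, the difference and the step from E17.5. Of 606 values in the knockout step under the alternatives, 605 kept their direction and their side of the threshold, the exception being Myl2. Of 299 values of the difference 272 did, and 27 no longer passed, all of them of Col2a1, Cnmd or Nefl. The 606 values cover 32 results, those of the Nfe2l2 probe sets and of the largest rises and falls. The 299 cover 12, those of the largest differences between steps. Apart from the Nfe2l2 probe sets these were chosen for their size, so the counts do not test the other named genes. The median step of all genes lay between -0.06 and 0.01 under every setting tried. Groups of 3 arrays, and knockout ages out of order on the wild-type scale, limit how far the step can be read as a change at birth.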
